A study of Mus musculus with 4 samples.

Results

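The stromelysins, matrilysin and macrophage elastase are 5 secreted matrix metalloproteinases (MMPs) among the 84 extracellular matrix (ECM) and adhesion genes of a qPCR array. They were chosen by name and well: *Mmp3* (stromelysin-1, E10), *Mmp10* (stromelysin-2, E02), *Mmp11* (stromelysin-3, E03), *Mmp7* (matrilysin, E11) and *Mmp12* (macrophage elastase, E04). The deposited table gives well positions without gene names. Names used here follow the alphabetical order of the array, held in place by 11 anchor wells, and were not checked against a primer list. The anchors D08 (*Lama1*), E05 (*Mmp13*) and F01 (*Mmp9*) enclose all 5 wells, and the names between them fill the wells between them exactly.

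MMPs are zinc-dependent proteases made as inactive proenzymes that cleave matrix outside the cell. Stromelysin-1 and stromelysin-2 degrade proteoglycans, fibronectin and laminin and can activate procollagenases, whereas matrilysin is typical of epithelia and macrophage elastase degrades elastin. Tissue inhibitors of metalloproteinases (TIMPs) block the active enzymes, and in bone the balance of both takes part in matrix turnover.

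Osteoblasts (OBs) came from 4-day-old mice of both sexes, all with floxed *Vegf* alleles (*Vegffl/fl*), and male and female cells were kept apart. Adenovirus with Cre-recombinase and GFP gave the OBVEGFKO cultures, and adenovirus with GFP alone gave the controls, called WT, which therefore carry the floxed alleles and the virus too. Transduction lasted 6 days and was followed by 24 h in 1% serum. Cre acted in any cell that took up the virus, and bone digests can hold cells other than OBs. Each sex and genotype was 1 cDNA from 500 ng RNA, and the number of mice behind a culture is not given in the sources used here. *Vegf* mRNA was not analysed here.

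The array gives a cycle threshold (Ct), which is lower where there is more template, by 1 cycle for each 2-fold at full efficiency. The highest Ct in the table, 35, was taken as the limit of detection. With 1 culture per group there was no replicate error and no test was made, so each difference describes these cultures. The comparisons of genotypes and of sexes share the same 4 cultures. Primer efficiencies are unknown, so a gap in Ct between genes is not the ratio of their levels, and such gaps are read only by how they differ between cultures.

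The OBVEGFKO cultures had a lower Ct than the WT cultures across most of the array, in 82 of 84 wells in female and 79 of 84 in male cells. Each culture had its own cDNA, so genotype cannot be told apart from cDNA preparation or array run. Whether this shared shift came from the genotype was not tested. The median Ct over 84 wells was 25.96 and 21.92 in the female WT and OBVEGFKO cultures, and 25.53 and 22.56 in the male ones. Among the 76 wells under 35 in every culture, the median well had a Ct lower in OBVEGFKO by 3.28 cycles in female and by 2.84 in male cells. The housekeeping wells, to which the study normalised, were not analysed here. Log2 fold changes are therefore relative to the median well, which is 0, and any other reference shifts every gene of a comparison by the same amount. Fewer cells of a type and less RNA per cell cannot be told apart in such cultures.

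In 3 wells the Ct change departed from that of the median well by more than 5 cycles. E01 (*Lamc1* by the same order), next to *Mmp10*, was at 31.97 and 13.67 in female WT and OBVEGFKO cells and at 31.56 and 28.83 in male cells. F06 (*Sele*) was at 35 in 3 cultures and at 15.65 in female OBVEGFKO. G06 (*Timp1*) was at 30.02 in female WT, with 19.30 in female OBVEGFKO and 22.39 and 20.16 in the male cultures. None of the 5 proteases was among these wells.

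*Mmp3*, which encodes the stromelysin that activates procollagenases, had a Ct of 22.43 in female WT and 19.21 in female OBVEGFKO cells, and of 21.33 and 18.90 in male cells. Both OBVEGFKO cultures lay below both WT cultures, and in each genotype the male culture had the lower Ct. *Mmp10*, its close relative, was at 29.91 and 26.39 in female WT and OBVEGFKO cells and at 29.34 and 26.39 in male cells. The OBVEGFKO cultures of both sexes were equal for this gene.

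*Mmp11*, whose product is activated inside the cell by furin, was at 25.95 and 22.77 in female WT and OBVEGFKO cells and at 25.41 and 22.81 in male cells. *Mmp12* was at 23.69 and 20.25 in the female cultures and at 23.34 and 20.44 in the male ones. For both genes the raw Ct of the sexes lay closer together in OBVEGFKO than in WT cultures. The median well did so too, with a Ct lower in male cells by 0.44 cycles in WT and 0.01 in OBVEGFKO. Relative to it, male versus female log2 values in WT and OBVEGFKO were −0.09 and −0.20 for *Mmp12*. They were 0.10 and −0.05 for *Mmp11*. *Mmp7* stood at 35 in all 4 cultures and was not detectable in any, so no fold change is given for it and 4 of the 5 genes enter the comparisons.

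**Figure D1:**
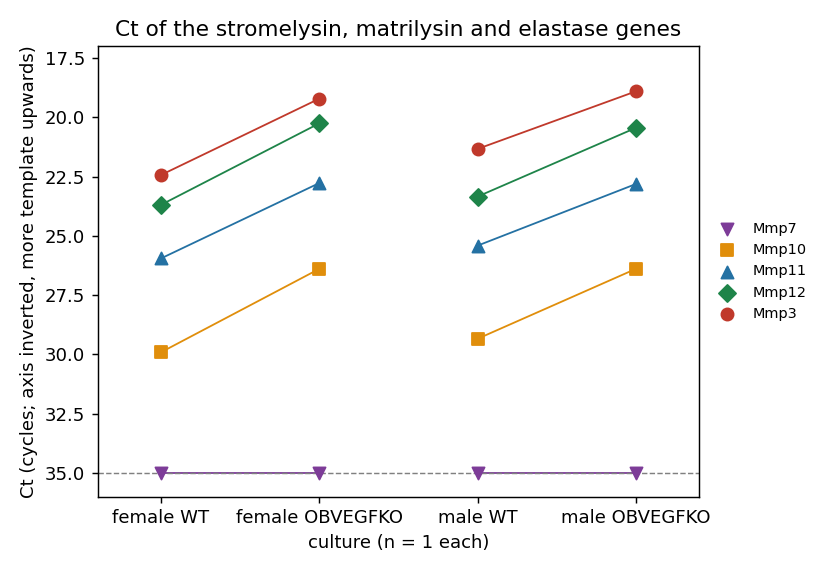
Ct in cycles (inverted axis, more template upwards) of the 5 genes in the 4 cultures, 1 point per culture, with lines joining WT and OBVEGFKO of the same sex and a dashed line at the limit of 35. *Mmp3*, *Mmp10*, *Mmp11* and *Mmp12* had lower Ct values in both OBVEGFKO cultures, and *Mmp7* lay at 35 throughout.

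The first comparison asked how *Vegf* deletion bore on these genes in female OBs. Relative to the median well, all 4 measured genes lay close to 0 in OBVEGFKO versus WT cells. The Ct was lower by 3.52 cycles for *Mmp10*, 3.44 for *Mmp12*, 3.22 for *Mmp3* and 3.18 for *Mmp11*. The log2 fold changes were 0.24, 0.16, −0.06 and −0.10 in that order, with a median of 0.05, and all lay within the interquartile range of the 76 wells. No member was 2-fold higher or lower (0 of 4), beside 7.79% of 77 wells at least 2-fold higher and 1.30% at least 2-fold lower. At such shares a count of 0 of 4 is not a result about these genes. The count rests on the reference, since without one 4 of 4 members and 77 of 77 wells were at least 2-fold higher.

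In male OBs the Ct was lower with OBVEGFKO by 2.95 cycles for *Mmp10*, 2.90 for *Mmp12*, 2.60 for *Mmp11* and 2.43 for *Mmp3*. The log2 fold changes were 0.11, 0.06, −0.24 and −0.41, with a median of −0.09. *Mmp3* was 1.33-fold lower relative to the median well, at rank 69 of 77 from the highest, and was the member outside the interquartile range of −0.27 to 0.31. Again 0 of 4 reached 2-fold, beside 7.79% of wells higher and 1.30% lower, and without a reference 4 of 4 members and 77 of 77 wells were at least 2-fold higher.

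In both sexes *Mmp10* and *Mmp12* lay above the median well and *Mmp3* and *Mmp11* below it. These signs rest on the reference. Without any, all 8 values lay between 2.43 and 3.52 on the log2 scale, and with the median Ct of each culture as reference they lay between −0.86 and −0.02.

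The next comparison asked whether male and female WT cells differed. *Mmp3* stood out among the members, with a Ct lower in male cells by 1.10 cycles, against 0.57 for *Mmp10*, 0.54 for *Mmp11*, 0.35 for *Mmp12* and 0.44 for the median well. *Mmp3* was 1.58-fold higher in male WT cells relative to the median well (log2 0.66), at rank 8 of 76, with 59 wells nearer to 0. It was above 0 under all 7 alternatives run, from 0.611 to 1.10. The other log2 fold changes were 0.13 for *Mmp10*, 0.10 for *Mmp11* and −0.09 for *Mmp12*, which turned positive without a reference. No member reached 2-fold (0 of 4), beside 3.95% of 76 wells higher and 7.89% lower in male cells. Without a reference *Mmp3*, at 1.10 on the log2 scale, was 1 of 8 wells at least 2-fold higher, and 3 were at least 2-fold lower.

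Between the OBVEGFKO cultures the members lay closer together. The Ct of *Mmp3* was lower in male cells by 0.31 cycles, that of *Mmp10* was equal, and those of *Mmp11* and *Mmp12* were higher by 0.04 and 0.19. The log2 fold changes were 0.30, −0.01, −0.05 and −0.20, all within the interquartile range. *Mmp3* was above 0 under all 7 alternatives, from 0.278 at an efficiency of 1.9, which cannot change a sign, to 0.95. The other measured members were above 0 with the median Ct or the mean change as reference. Members past 2-fold were 0 of 4, beside 5.06% of 79 wells higher and 7.59% lower.

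The male effect of OBVEGFKO minus the female effect was −0.35 for *Mmp3*, −0.13 for *Mmp10*, −0.14 for *Mmp11* and −0.10 for *Mmp12* on the log2 scale. All 4 were below 0 with the median well as reference, and all 4 were above 0, from 0.28 to 0.53, with the median Ct of each culture. This difference was not tested. By this measure 0 of 4 members were past 2-fold, beside 10.5% of 76 wells higher and 6.58% lower.

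**Figure D2:**
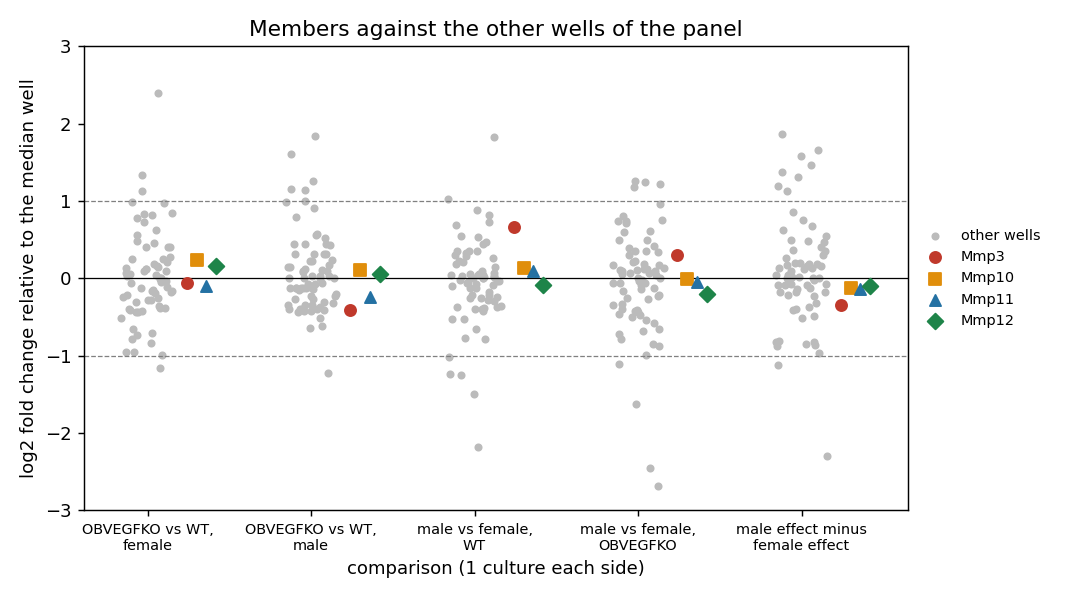
Log2 fold change relative to the median well for each well under 35 in the cultures compared (grey points) and for *Mmp3*, *Mmp10*, *Mmp11* and *Mmp12* (coloured symbols), by comparison, with dashed lines at 2-fold. From left to right 3, 0, 2, 2 and 3 wells lie beyond the axis, and the coloured symbol farthest from 0 is *Mmp3* in male versus female WT cells, at 0.66.

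Differences in Ct between a pair of genes in the same culture need no reference. *Mmp12* minus *Mmp10* was −6.22 and −6.14 cycles in female WT and OBVEGFKO cells and −6.00 and −5.95 in male cells. Its spread of 0.27 cycles was the narrowest of the 6 pairs. *Mmp12* minus *Mmp3* was 1.26 and 1.04 in the female cultures and 2.01 and 1.54 in the male ones, and its spread of 0.97 was the widest.

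The male and female cultures differed in the gaps between *Mmp3* and the other measured members. These gaps all subtract the same *Mmp3* wells, so they are not separate observations. Relative to *Mmp3*, the Ct in male WT cells was higher than in female WT cells by 0.53 cycles for *Mmp10*, 0.56 for *Mmp11* and 0.75 for *Mmp12*. Among OBVEGFKO cells the same gaps were wider in the male culture by 0.31, 0.35 and 0.50. The ratio of *Mmp3* to each of the other three was thus higher in the male culture of both genotypes. The gap between *Mmp11* and *Mmp10* differed more between genotypes than between sexes. It was −3.96 and −3.62 cycles in female WT and OBVEGFKO cells and −3.93 and −3.58 in male cells. Other pairs also moved alike with OBVEGFKO in female and male cells, such as *Mmp12* minus *Mmp11* by −0.26 and −0.30. *Mmp10* minus *Mmp3* moved by −0.30 and −0.52, and *Mmp12* minus *Mmp3* by −0.22 and −0.47. Of the 6 pairs only *Mmp11* minus *Mmp3* did not, at 0.04 and −0.17. The median spread of the 6 pairs was 0.505 cycles, beside 0.85 (interquartile range 0.56 to 1.22) for 1540 pairs of the 56 wells that never exceeded a Ct of 30.

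Likeness of pattern was the Euclidean distance between the 4 Ct values of a pair of wells, each centred on its own mean. *Mmp10* was nearest to *Lamb2* (D11, 0.096 cycles) and *Mmp9* (F01, 0.099), against a median distance of 0.565 to 75 wells. *Mmp12* was also nearest to *Lamb2* (0.131), then to *Itgb1* (D04, 0.164). *Mmp11* was nearest to *Col5a1* (B05, 0.071) and *Spp1* (F12, 0.088). *Mmp3* had its nearest wells farther away, *Mmp15* (E07) at 0.241 and *Col3a1* (B01) at 0.29. No member was among the 2 nearest wells of another, and the closest members were *Mmp10* and *Mmp12*, at 0.216. These distances rest on 4 cultures and on the shift shared by the panel.

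The other MMPs of the array are the collagenases *Mmp1a*, *Mmp8* and *Mmp13*, the gelatinases *Mmp2* and *Mmp9*, and the membrane-type *Mmp14* and *Mmp15*. With OBVEGFKO in female cells 1 of these 7, *Mmp8*, was 2-fold higher relative to the median well (log2 1.13), and *Mmp13* was at 0.83. In male cells 0 of 7 reached 2-fold, with *Mmp1a* at 0.91 and *Mmp2* at −0.41, the same value as *Mmp3*. In male versus female WT cells 1 of 7 was 2-fold higher, *Mmp13* at 1.02, followed by *Mmp15* at 0.82. Beside this stand 3.95% of 76 wells higher and 7.89% lower. Between OBVEGFKO cultures 0 of 7 reached 2-fold, beside 5.06% of 79 wells higher and 7.59% lower. In the male minus the female effect 1 of 7 was 2-fold higher, *Mmp1a* at 1.13, and 1 of 7 was 2-fold lower, *Mmp8* at −1.12. Over all 76 wells 10.5% were higher and 6.58% lower by this measure. At such shares a count of 0 or 1 of 7 is not a result about these genes. *Mmp13*, a collagenase whose proenzyme stromelysin-1 can activate, had a Ct above that of *Mmp3* by 3.60 and 2.71 cycles in female WT and OBVEGFKO cells and by 3.24 and 2.96 in male cells. This gap was narrower in the OBVEGFKO culture of both sexes.

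Among the inhibitors, *Timp2* (G07) was at 20.33 and 16.64 in female WT and OBVEGFKO cells and at 19.53 and 16.69 in male cells. *Timp3* (G08), whose product binds to matrix, was at 24.76 and 21.23 in the female cultures and at 24.38 and 21.10 in the male ones. *Mmp3* minus *Timp2* was 2.10 and 2.57 cycles in the female cultures and 1.80 and 2.21 in the male ones, and *Mmp3* minus *Timp3* was −2.33 and −2.02 in the female cultures and −3.05 and −2.20 in the male ones. The ratio of *Mmp3* to *Timp2* and to *Timp3* was lower in the OBVEGFKO culture of either sex. *Mmp3* minus *Timp1* was −1.06 in male WT and −1.26 in male OBVEGFKO cells, the opposite direction, and −7.59 and −0.09 in the female cultures, where it rests on the *Timp1* well that stood apart. Relative to the median well 1 of 3 TIMPs was 2-fold higher with OBVEGFKO in female and 0 of 3 in male cells. In each sex this stands beside 7.79% of 77 wells higher and 1.30% lower. The 1 TIMP was *Timp1*, through its Ct of 30.02 in female WT, so the count is not a result about the TIMPs.

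Markers of other cells are given beside *Mmp12* and *Mmp7*, which are known from macrophages and epithelia. All 3 OB genes were measured in every culture, with *Sparc* (F10) at 17.52 and 15.07 in female WT and OBVEGFKO cells and at 17.33 and 14.64 in male cells. The 4 leukocyte markers reported were under the limit in every culture. *Itgb2* (D05) had the lowest Ct among them, which is no ranking of levels, at 23.50 and 19.44 in the female cultures and 23.34 and 19.70 in the male ones. Their summed template, with equal efficiencies assumed, corresponded to a Ct of 23.27 and 19.29 in the female cultures and 23.06 and 19.46 in the male ones.

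*Mmp12* minus *Itgb2*, the leukocyte integrin chain, was 0.19 and 0.81 cycles in female WT and OBVEGFKO cells and 0.00 and 0.74 in male cells. The ratio of *Mmp12* to *Itgb2* was thus lower in the OBVEGFKO culture of both sexes. *Mmp12* minus *Itgam* (D01), which pairs with *Itgb2* on macrophages and granulocytes, was −2.43 and −2.54 in the female cultures and −2.31 and −1.85 in the male ones. Relative to the median well the leukocyte markers had a median log2 fold change with OBVEGFKO of 0.425 in female and 0.895 in male cells, where *Mmp12* was at 0.16 and 0.06. Their part in the *Mmp12* values was not tested. Among 3 endothelial genes, *Pecam1* (F04) was at 29.98 and 27.43 in the female cultures and 31.72 and 30.10 in the male ones. *Selp* (F08) was at 31.31 and 27.82 in the female cultures and 31.64 and 29.44 in the male ones, and *Sele* was the well F06 that stood apart. Relative to the median well *Pecam1* was at −0.73 and *Selp* at 0.21 with OBVEGFKO in female cells, and at −1.22 and −0.64 in male cells. In male versus female cells *Pecam1* was at −2.18 and *Selp* at −0.77 in WT, and at −2.68 and −1.63 in OBVEGFKO cultures, and *Mmp3* was at 0.66 and 0.30 in these comparisons. The part of endothelial cells in the *Mmp3* values was not tested. The epithelial gene *Cdh1* (A06) was at 33.59 and 29.58 in female cells and at 35 and 28.85 in male cells, while *Mmp7* was at the limit in each of these cultures.

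In the RefSeq gene table of the mouse assembly GRCm38.p6, 7 of the 12 MMP genes of the array lie in a block of 10 MMP genes on chromosome 9. Their order is *Mmp13*, *Mmp12*, *Mmp1b*, *Mmp3*, *Mmp1a*, *Mmp10*, *Mmp8*, *Mmp27*, *Mmp20* and *Mmp7*. The block holds 4 of the 5 members, and *Mmp11* is on chromosome 10. *Mmp7*, at the end of the block, stood at 35, and the genes next to it, *Mmp20* and *Mmp27*, are not on the array. The other 6 array genes of the block were under 35 in all cultures.

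Several MMP promoters are known targets of the transcription factor AP-1. Its element was searched as TGAGTCA, or TGACTCA on the other strand, from 250 bases before to 50 after each start in the RefSeq promoter table (GRCm38.p6). It was present in 5.20% of 32851 windows and in 4 of the 7 windows of the members, 1 each for *Mmp3*, *Mmp10*, *Mmp7* and *Mmp12*. The window of *Mmp11*, that of the second *Mmp7* start and that of the first *Mmp12* start had no match. Among the array's MMP genes with a window, 6 of 10 had the element in at least 1, including *Mmp13* and *Mmp1a*. The stretches from 80 bases before to 20 after the start are printed for the starts of these 4 genes that have it, to set undetected *Mmp7* beside the measured members. All are on the plus strand, with the element in capitals.
Mmp3, chr9:7445742-7445841: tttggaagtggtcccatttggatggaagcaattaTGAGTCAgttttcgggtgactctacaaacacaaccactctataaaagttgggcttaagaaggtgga
Mmp10, chr9:7502262-7502361: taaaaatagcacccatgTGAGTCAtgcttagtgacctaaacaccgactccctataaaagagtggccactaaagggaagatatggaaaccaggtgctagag
Mmp7, first of 2 starts, chr9:7692010-7692109: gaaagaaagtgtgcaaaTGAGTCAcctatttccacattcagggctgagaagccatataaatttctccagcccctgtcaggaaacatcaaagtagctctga
Mmp12, second of 2 starts, chr9:7347294-7347393: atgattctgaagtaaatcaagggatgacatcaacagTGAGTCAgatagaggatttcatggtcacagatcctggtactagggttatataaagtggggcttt
The element begins 46 bases before the start in *Mmp3*, 63 in *Mmp10* and *Mmp7*, and 44 in *Mmp12*. *Mmp7*, at 35 in all cultures, and *Mmp10*, with Ct values from 26.39 to 29.91, have it at the same distance from a start. A match is a description of the letters, and neither the start in use nor any bound factor was measured.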

How the data were processed

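The authors deposited the Ct of 84 wells for each of 4 OB cultures, not normalised, and used ΔΔCt with housekeeping genes for their own fold changes. Those stand in a second deposited table of ratios for 4 comparisons, which was not used. All per-sample Ct columns were used. The threshold behind the Ct is not given in the sources used here.

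The log2 fold change of a well was the median Ct change over the 76 wells under 35 in all cultures minus its own Ct change, at an efficiency of 2. This reference replaced the housekeeping wells, which were not analysed here. In the main calculation no fold was computed against a Ct of 35. Named were the members, the other MMPs, the TIMPs, markers of OBs, leukocytes, endothelium and epithelium, and the 2 wells nearest in pattern to each member; E01 was added after its values were seen. A further marker on these lists is not reported here. The anchor wells had been located through fold changes printed by the authors. Members and lists were chosen with earlier results of these data known. Of 84 symbols, 83 matched the RefSeq gene table and 84 with synonyms. No test was made: with 1 culture per group, no spread within a group can be estimated. The arithmetic of the calculation was checked on simulated arrays with known shifts and little noise. Such arrays cannot tell whether the median well suits these data as reference. Alternatives were other references, an efficiency of 1.9, thresholds of 1.5-fold and 4-fold, and wells at 35 as deposited. Python 3.11.15, numpy 2.4.6, pandas 2.3.3 and matplotlib 3.10.9 were used.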

Additional observations from a re-analysis of the deposited data

Results flagged for a closer look

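Among the named wells, a set that holds E01 only because it stood apart, 5 lay on opposite sides of the median well. The sides are those after OBVEGFKO in female and in male cells. None of them was a stromelysin, matrilysin or elastase gene. Wells outside this set changed side too, such as *Lama1* (−0.66 in female and 1.0 in male cells) and *Postn* (3.06 and −0.43). The share of all wells that changed side is not given here, so the 5 are not read as a result about the named wells. The male minus the female effect was −0.96 on the log2 scale for *Mmp13*, at 0.83 in female and −0.13 in male cells. It was 1.13 for *Mmp1a*, at −0.22 and 0.91, and −0.85 for *Selp*, at 0.21 and −0.64. For *Timp1* it was −8.05, at 7.44 and −0.61, and rests on the Ct of 30.02 in female WT. For E01, a well that stood apart, it was −15.13, at 15.02 and −0.11, and rests on the Ct of 13.67 in female OBVEGFKO. The difference was not tested, with 1 culture per group. Before scaling to the median well, the Ct of each of these 5 wells was lower in OBVEGFKO cells of both sexes.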

How the results depend on the processing

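The reference moved the results most. A value counted as moved past 0.4 on the log2 scale, the scaled median absolute deviation of the 76 wells in the comparison of WT sexes, and a count past a factor of 1.5. Without a reference the members' median was 3.33 for OBVEGFKO in female and 2.75 in male cells, 0.555 for the sexes in WT and −0.575 for the male minus the female effect. With the median Ct of each culture it was −0.71 for OBVEGFKO in female cells, 0.62 for the sexes in OBVEGFKO and 0.495 for the male minus the female effect. Each reference adds a single constant per comparison. Of the 20 member values, 14 kept their sign without a reference, 9 with the median Ct and 11 with the mean change. All 20 did with reference wells of at most 30 and without MMP and TIMP wells. They also did without the 3 wells that stood apart, an alternative chosen after seeing the data. An efficiency of 1.9 scales every value by the same positive factor, so there all 20 were bound to keep their sign.

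Counts of wells past the threshold moved as follows. At 1.5-fold there were 14 higher and 9 lower for OBVEGFKO in female cells, 3 lower in male cells, 8 higher for the sexes in WT, 12 higher and 13 lower for the sexes in OBVEGFKO, and 12 lower for the difference of effects. At 4-fold there were 0 lower in female cells, 0 higher and 0 lower in male cells, 1 higher and 2 lower for WT, 0 higher for OBVEGFKO and 0 higher for the difference. Without a reference there were 77 higher and 0 lower in each sex, 8 higher and 3 lower for WT, and 4 higher and 12 lower for the difference. With wells at 35 as deposited there were 3 lower in female and 6 in male cells, and 8 lower for the difference. WT and OBVEGFKO cultures were compared within each sex, and no fit over both sexes was made. The labels give no replicate numbers to pair by, and with 1 culture per group no culture could be left out. At a Ct of 35 a level is not detectable, which is the limit on *Mmp7*.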
